A study of Gallus gallus with 6 samples.

Results

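Predicted small RNAs of 25 or 26 nucleotides (nt) were described in the testes of Cobb500 breeder cocks. These are sequences that the authors' software matched to no listed vertebrate miRNA precursor, placed in the chicken genome next to sequence able to fold into a hairpin, and named PC-5p or PC-3p after the arm of that hairpin. They were chosen by this name and by length, and a sequence on several lines of the table was counted once, which gave 99 sequences (105 lines) of the 1151 distinct sequences in the table. They are the longer end of 317 predicted sequences, since reads of 18 to 26 nt were kept. Small RNA libraries came from 3 control birds on a corn and soybean diet (C libraries) and 3 birds given the same diet with 10 g of Astragalus polysaccharide (APS) per kg (A libraries), all 40 weeks old. APS is a polysaccharide preparation from Astragalus root used as a feed additive. The methods give 1 left testis per bird, sampled as whole tissue, and the sample labels and the methods differ in the number of birds raised, the RNA kit and the instrument.

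miRNAs are cut from hairpin precursors by Drosha and Dicer and guide Argonaute proteins to messages that pair with their seed, bases 2 to 8 from the 5′ end. The other large class of small RNA in a testis is that of the piRNAs, which are bound by PIWI proteins of germ cells, are made without Dicer from long single-stranded transcripts, and silence transposons. piRNAs are longer than miRNAs and usually begin with uridine. In the ping-pong cycle, a piRNA guides the cut that makes the 5′ end of the next one, so that partners pair over their first 10 bases and the second partner tends to have adenine at position 10. The size filter kept the lengths of miRNAs and the shorter edge of the piRNA range, and the table itself does not say which class a predicted sequence belongs to.

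The sequences are written 5′ to 3′ as in the table, with T standing for uridine. The 10 most abundant are shown first because they carry most of the counts, with the seed in capitals:
PC-3p-11513_334: gAGGTAGAaggcgctccctgtgacc
PC-3p-5076_599: tTCCTCTTtggggcctggatgctgc
PC-5p-26228_169: cGAGGTAGaaggcgctccctgtgacc
PC-3p-43895_105: gTGCAGGAtagcctcctttcccatc
PC-3p-21704_199: tGACACGGtaggagcccttggtgctt
PC-3p-50259_92: tGATGTTCtgggcccgacgtggtacc
PC-3p-19523_219: tGTCAGAGtagaggcagcgctgcggc
PC-3p-29538_152: tGGGTCTGgctctcctctgctgctt
PC-5p-23016_190: tGACACGGtaggagcccttggtgct
PC-5p-35653_128: aGCCCATGgacgtggatctgcctcc
The next 6 are shown because they had an unadjusted p under 0.05 between the diets, again with the seed in capitals:
PC-5p-113875_40: aGAGCTGAgagttccccttttgggc
PC-5p-145884_31: gTTGACAAgatctctcagtatggacc
PC-5p-419180_10: tCACAGAAtctgatacttgggaggg
PC-5p-603699_7: aAGGTACAgagctcagcccggaatt
PC-5p-594946_7: tCCTGAGAaattagcattgcactgat
PC-3p-1174314_3: tATATGCTgatcctaggatctcacct

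The first base was most often T. Of the 99 sequences 58 began with T (58.6%), 18 with A, 18 with G and 5 with C. The share with T at positions 2 to 25 was 17.2% to 35.4%, with a median of 24.2%, so position 1 stood above every later position up to 25. Weighted by counts, T came first in 59.9% of the reads, and by library in 59.4%, 58.4% and 57.0% of the C reads and 56.1%, 63.5% and 64.5% of the A reads. The shares of the C libraries thus lay within the range of the A libraries. The count-weighted share leans on single sequences, since without PC-3p-11513_334, which begins with G and held 9.88% of the counts, it was 66.5%. Counting 1 sequence for each group that shares a run of at least 18 bases, 59.6% of 94 began with T.

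The 2 lengths differed in this feature. T came first in 22 of 47 sequences of 25 nt (46.8%) and in 36 of 52 sequences of 26 nt (69.2%). By counts the shares were 47.0% at 25 nt and 78.8% at 26 nt. Without the most abundant sequence of each length, PC-3p-11513_334 with 16.6% of the counts at 25 nt and PC-5p-26228_169 with 15.3% at 26 nt, they were 56.4% and 93.0%. The length just below, predicted sequences of 24 nt, had T first in 31 of 44 sequences (70.5%), so the share did not climb steadily with length. Predicted sequences of 20 to 24 nt had T first in 58.9% of 124, those of 18 to 19 nt in 39.4% of 94, known miRNA names of 25 to 26 nt in 46.7% of 60 and known names of 20 to 24 nt in 42.2% of 676. Counting distinct sequences, the share at 25 to 26 nt was therefore close to that of predicted sequences of 20 to 24 nt. By counts the order differed, with 59.9% for the 99 sequences. It was 44.1% in predicted sequences of 20 to 24 nt (70.1% without the most abundant) and 50.8% in those of 18 to 19 nt. Known names had 35.2% by counts at 25 to 26 nt and 71.3% at 20 to 24 nt. No difference between these sets was tested.

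**Figure D1:**
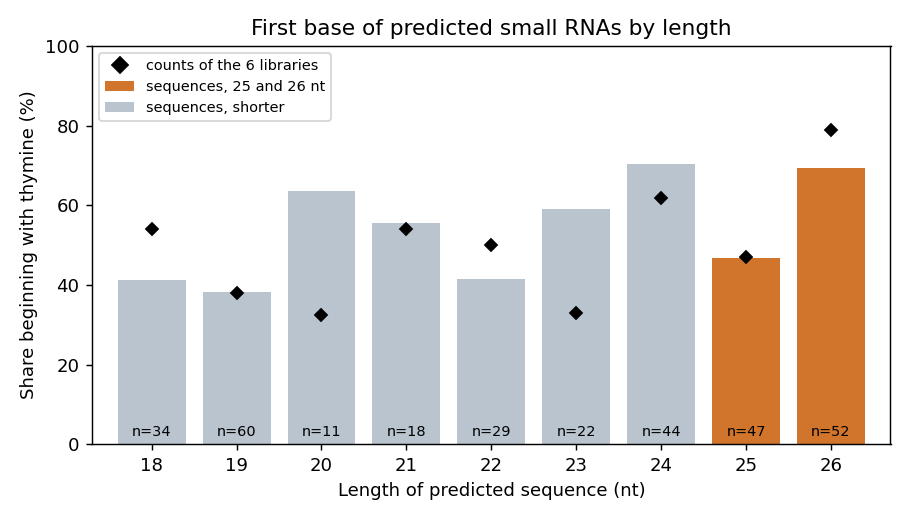
Share of predicted sequences that begin with thymine (uridine in RNA), in percent, against length in nt. Bars give distinct sequences with their number n, orange for 25 and 26 nt, and diamonds give the share of the counts of the 6 libraries. The bar is at 46.8% for 25 nt and 69.2% for 26 nt, with 70.5% at 24 nt.

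Adenine was frequent at position 10. It was found in 45 of the 99 sequences (45.5%), while the share of adenine at the other positions up to 25 had a median of 19.2% and was highest at 27.3%, at position 5. At 25 nt the share at position 10 was 40.4% and at 26 nt it was 50.0%. It was 33.1% in predicted sequences of 20 to 24 nt and 37.2% in those of 18 to 19 nt. Single lengths varied, from 20.7% of 29 predicted sequences at 22 nt to 45.5% of 22 at 23 nt, level with the 99. Known names had 28.3% at 25 to 26 nt and 23.7% at 20 to 24 nt, again with no test of the differences. Set against the first base, adenine stood at position 10 in 25 of the 58 sequences that begin with T (43.1%) and in 20 of the 41 others (48.8%). PC-5p-26228_169, PC-3p-43895_105, PC-3p-21704_199, PC-3p-19523_219, PC-5p-23016_190, PC-5p-35653_128, PC-5p-37270_123 and PC-3p-86168_53 were the 8 of the 15 most abundant that have it.

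Possible ping-pong partners were looked for by their bases alone. Among all sequences of the table, 1 was complementary over its first 10 bases to the first 10 bases of any of the 99, and it was a predicted sequence of 18 to 19 nt. The pair is shown because it is the only one found, with the complementary bases in capitals:
PC-5p-35653_128: AGCCCATGGAcgtggatctgcctcc
PC-3p-489758_8: TCCATGGGCTcttctgggt
PC-5p-35653_128 had 588.5 counts over the 6 libraries and PC-3p-489758_8 had 19. The longer one has the adenine at position 10, and the shorter one begins with the T that pairs with it. Because pairs were chosen by complementarity over the first 10 bases, this T follows from the adenine and is not a separate observation. No pair with a run of at least 18 bases on opposite strands was found. The search covered only reads that the pipeline kept as miRNAs, so partners outside the table could not be seen.

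Towards the other end, C was the most frequent base at position 25. Position 25 was C in 52.5% of the 99 sequences, being 57.4% of those of 25 nt, where it is the last base, and 48.1% of those of 26 nt, where it is the last but 1. The last base was C in 43.4% and T in 31.3% of the 99. At 26 nt alone the order turned, with T last in 40.4% and C in 30.8%. For comparison, the last base was C in 32.3% of predicted sequences of 20 to 24 nt and in 37.2% of those of 18 to 19 nt. It was C in 12 of the 60 known names of 25 to 26 nt, in which T was last in 63.3%. The G and C content of the 99 sequences was 53.3% on average, from 30.8% in PC-3p-106665_43 and PC-3p-481919_8 to 84.0% in PC-3p-283570_15 (the last 2 chosen after their values were seen).

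**Figure D2:**
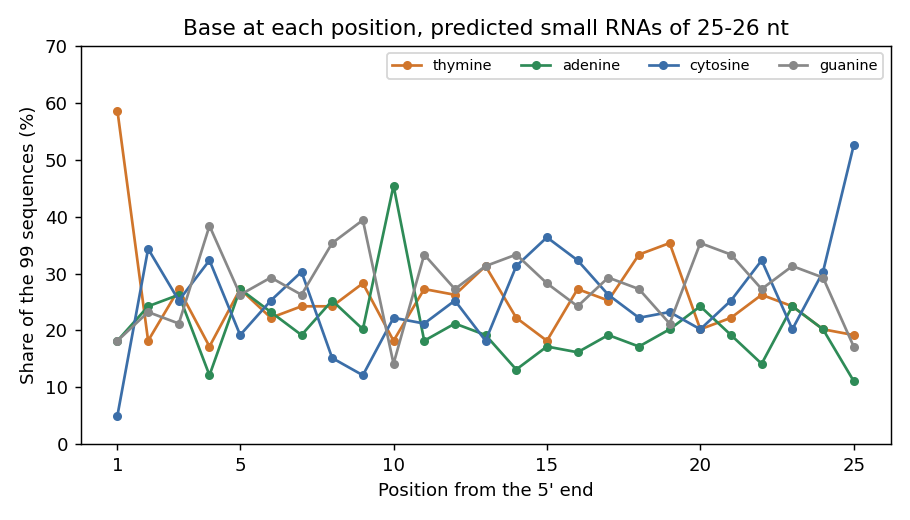
Share of the 99 sequences with each base (percent) against position from the 5′ end, for positions 1 to 25. Thymine stands out at position 1 (58.6%), adenine at position 10 (45.5%) and cytosine at position 25 (52.5%), which is the last base of the 25 nt sequences.

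The sequences were few in reads. Together they had 14663 counts, 0.396% of the table. By library they were 0.444% (95% exact Clopper-Pearson interval 0.426 to 0.463), 0.333% (0.320 to 0.347) and 0.435% (0.417 to 0.453) of the C counts, and 0.425% (0.408 to 0.442), 0.363% (0.349 to 0.377) and 0.410% (0.394 to 0.426) of the A counts. The intervals cover counting error only. The lowest shares were in C replicate 2 and A replicate 2, the 2 largest libraries, with 743187 and 721285 counts of a range that starts at 497286. On the CPM scale, which is counts scaled to library totals adjusted by TMM, the summed level was 3955, 3829 and 4222 CPM in C and 4106, 4015 and 3856 CPM in A. The means were 4002 ± 201 in C and 3993 ± 127 in A (SD, n = 3 each), and the diets overlapped. The log2 ratio of A over C was -0.0034. The size of this ratio was smaller than the spread between libraries, and it stayed within -0.042 to 0.037 under every alternative run for it.

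Most of the sequences were found on both diets. Of the 99, 66 were found in all 6 libraries, 14 in 5, 7 in 4, 7 in 3 and 5 in 1 or 2. They were in at least 1 library of each diet for 92, in no A library for 4 and in no C library for 3. The median was 36 counts over the 6 libraries, from 3 to 1448, with 26 sequences at 100 or more and 12 under 10. The 15 most abundant held 72.4% of the counts. A count of 0 in a library allows up to 3 counts, which are 4.46 to 5.47 CPM.

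PC-3p-11513_334 was the most abundant, at 458, 345 and 492 CPM in C and 452, 372 and 278 CPM in A. PC-3p-5076_599 followed with 378, 255 and 381 CPM in C and 245, 330 and 372 CPM in A. PC-5p-26228_169 was measured at 281, 352 and 246 CPM in C and 246, 172 and 196 CPM in A. In the first 2 the diets overlapped broadly, and in PC-5p-26228_169 the highest A library was level with the lowest C library, so that its mean was 293 ± 54.2 CPM in C and 205 ± 37.9 CPM in A (log2 fold change -0.52 ± 0.23 SE, edgeR adjusted p = 0.690). The order of neighbours in this list is loose, because their ranges over the libraries overlap.

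PC-3p-50259_92 varied most among the 15. Its level was 60.9, 334 and 122 CPM in C and 139, 391 and 168 CPM in A, a coefficient of variation of 83.1% in C and 59.3% in A, against medians of 18.5% and 20.6% over the 15. The high libraries were C replicate 2 and A replicate 2, and the diets overlapped. These 2 libraries also had the highest summed level of the 5 sequences named miR-143 or miR-145, miRNAs of smooth muscle, with 62375, 110794 and 83152 CPM in C and 73976, 108301 and 60732 CPM in A. The 4 sequences named miR-126, a miRNA of endothelium, were likewise highest there, at 5540, 18048 and 11480 CPM in C and 13230, 14536 and 3859 CPM in A. The 7 sequences named for striated muscle miRNAs were highest there too, at 149, 219 and 124 CPM in C and 130, 140 and 118 CPM in A. The remaining lists of cell type miRNAs were not highest in both libraries. A miRNA outside the lists, gga-miR-99a-5p_R-1, was also highest there, at 164488 CPM in C replicate 2 and 141686 CPM in A replicate 2. The part of any of these in the level of PC-3p-50259_92 was not tested. In whole tissue, fewer cells of a type and less RNA per cell cannot be told apart.

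PC-3p-43895_105 was even in the C libraries, at 209, 215 and 208 CPM, and wider in A at 303, 216 and 179 CPM. PC-3p-39506_116 was at 113, 116 and 126 CPM in C and 188, 141 and 147 CPM in A, the one sequence of the 15 whose diets did not overlap (log2 fold change 0.42 ± 0.22 SE, edgeR adjusted p = 0.690). The others of the 15, PC-3p-21704_199, PC-3p-19523_219, PC-3p-29538_152, PC-5p-23016_190, PC-5p-35653_128, PC-5p-37270_123, PC-5p-16235_254, PC-3p-106665_43 and PC-3p-86168_53, had mean levels of 101 to 218 CPM, and each overlapped between diets. In PC-3p-106665_43 the C replicate 1 library was at 159 CPM and the other 5 at 79.6 to 116 CPM.

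**Figure D3:**
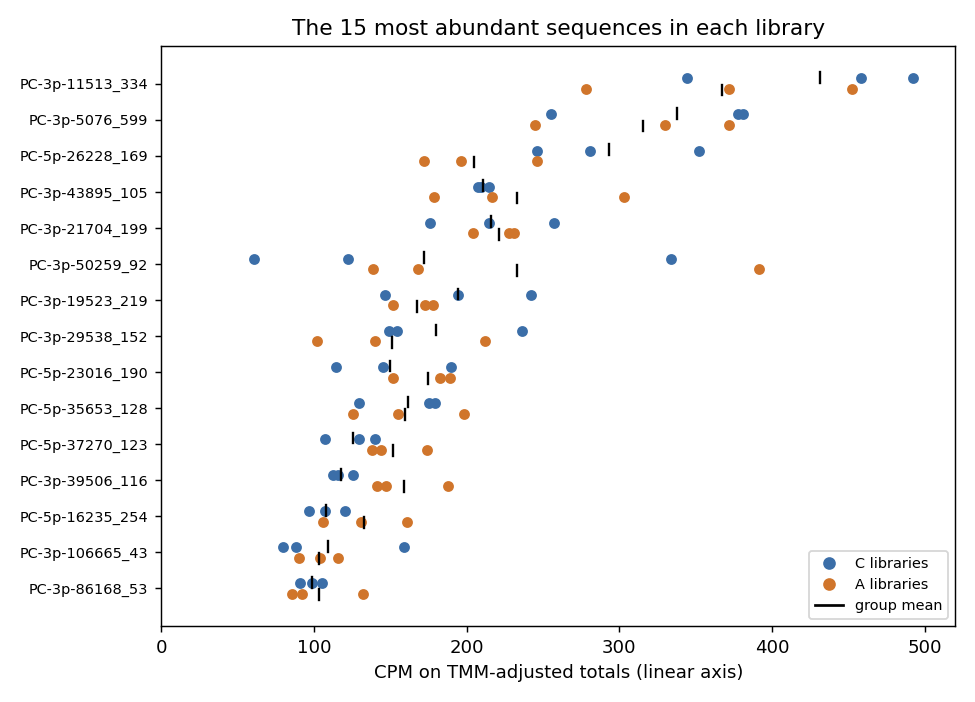
CPM on TMM-adjusted totals (horizontal, linear axis) of the 15 most abundant sequences, with 1 point per library (C blue, A orange) and a black line at each group mean. PC-3p-50259_92 has the widest spread, from 60.9 to 391, and PC-3p-39506_116 is the one whose A points all lie to the right of its C points.

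The arm names split the sequences evenly. There were 49 named 5p and 50 named 3p, with 5277.5 and 9385.5 counts. The summed level of the 5p sequences was 1459 ± 57.1 CPM in C and 1421 ± 143 CPM in A, and that of the 3p sequences 2543 ± 151 and 2572 ± 149 CPM (SD, n = 3 each). T came first in 55.1% of the 5p and in 62.0% of the 3p sequences. By counts this was 43.6% and 69.1%, and without the most abundant sequence of each arm, PC-5p-26228_169 and PC-3p-11513_334, it was 52.7% and 81.7%.

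Several sequences were versions of each other. A run of at least 18 bases in the same strand was shared with another sequence of the table by 20 of the 99, which held 46.9% of the counts. This made 20 pairs, of which 5 joined 2 of the 99, 14 joined 1 with a predicted sequence of 20 to 24 nt and 1 with a known name. In 13 of the 20 pairs both started at the same base and differed at the 3′ end or by single bases. The arm in the name was not stable within pairs, since 8 of the 19 pairs of predicted sequences paired a 5p name with a 3p name although their bases are the same strand. The 3 pairs with the most counts among those of opposite arms are shown with the common run in capitals:
PC-3p-5076_599: TTCCTCTTTGGGGCCTGGATGCTgc
PC-5p-3655_746: TTCCTCTTTGGGGCCTGGATGCT
PC-5p-26228_169: cGAGGTAGAAGGCGCTCCCTGTGACC
PC-3p-11513_334: GAGGTAGAAGGCGCTCCCTGTGACC
PC-5p-23016_190: TGACACGGTAGGAGCCCTTGGTGCT
PC-3p-21704_199: TGACACGGTAGGAGCCCTTGGTGCTt

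PC-3p-5076_599 is the 23 nt sequence PC-5p-3655_746 with 2 more bases at its 3′ end. The longer form was 46.4%, 39.6% and 40.3% of the counts of the pair in C and 37.2%, 44.3% and 42.4% in A. PC-3p-21704_199 and PC-5p-23016_190 differ by 1 base at the 3′ end, and the shorter form was 40.3%, 39.4% and 42.4% of the pair in C and 44.1%, 42.7% and 45.4% in A. That share had a narrow range over the 6 libraries, and the lowest A library (42.7%) was just above the highest C library (42.4%).

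PC-5p-26228_169 and PC-3p-11513_334 differ by 1 base at the 5′ end, so their seeds are shifted against each other. The longer form was 38.0%, 50.6% and 33.3% of the pair in C and 35.3%, 31.6% and 41.4% in A, and its share was highest in C replicate 2. With the added base, bases 2 to 8 of PC-5p-26228_169 become those of the let-7 family, which the table holds in 14 known sequences. The 2 are set side by side here with the seed in capitals:
PC-5p-26228_169: cGAGGTAGaaggcgctccctgtgacc
gga-let-7a-5p: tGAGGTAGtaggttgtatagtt
The let-7 miRNAs restrain growth and pluripotency genes in differentiated cells. gga-let-7a-5p had 144437 counts and PC-5p-26228_169 had 911, and the bases after the seed differ.

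PC-5p-201155_22 was the one sequence that extends a known name. It is a miR-449c sequence of the table, listed under an opossum name, with 2 more bases at the 3′ end. Other sequences named miR-449c, such as the chicken gga-miR-449c-5p_R+1, shared no run of at least 18 bases with it. The pair with the opossum name is shown with the common run in capitals:
PC-5p-201155_22: AGGCAGTGTATTGTTAGTTAGCTgc
mdo-miR-449c-5p_R+2_1ss1GA: AGGCAGTGTATTGTTAGTTAGCT
miR-449 and miR-34 share this seed and are known from ciliated cells and from germ cells from meiosis onwards, and the seed stood in 8 known sequences of the table. The longer form had 10, 10 and 9 counts in C and 12, 10 and 12 counts in A. The known form had 78, 72 and 72 counts in C and 146, 119 and 87 counts in A. The longer form was thus 9.89% of the pair over all libraries, with 11.4%, 12.2% and 11.1% in C and 7.59%, 7.75% and 12.1% in A.

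In the next 3 pairs by counts, PC-3p-29538_152 was 56.6% of its counts with the 24 nt PC-5p-37716_121, PC-3p-19523_219 was 71.9% with PC-3p-29351_153, which starts 2 bases later, and PC-3p-111583_41 was 30.7% with PC-5p-11309_338, which ends 2 bases earlier. PC-3p-111583_41 was also paired with PC-5p-187229_23 and PC-5p-1065108_4. Lower pairs of 20 to 127 counts joined PC-5p-113875_40 with PC-5p-112606_40, PC-5p-233284_18 and PC-5p-419242_10 with each other and with PC-5p-427705_10, PC-5p-1122164_4 with PC-5p-181492_24, PC-5p-105021_43 with PC-5p-575754_7, PC-5p-571585_7 with PC-5p-392403_11, PC-5p-530277_8 with PC-5p-629482_6, PC-3p-1479789_3 with PC-3p-625211_6, and PC-3p-1338762_3 with PC-5p-1583206_2. Sequences of a pair may be reads of 1 precursor and are not independent of each other.

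**Figure D4:**
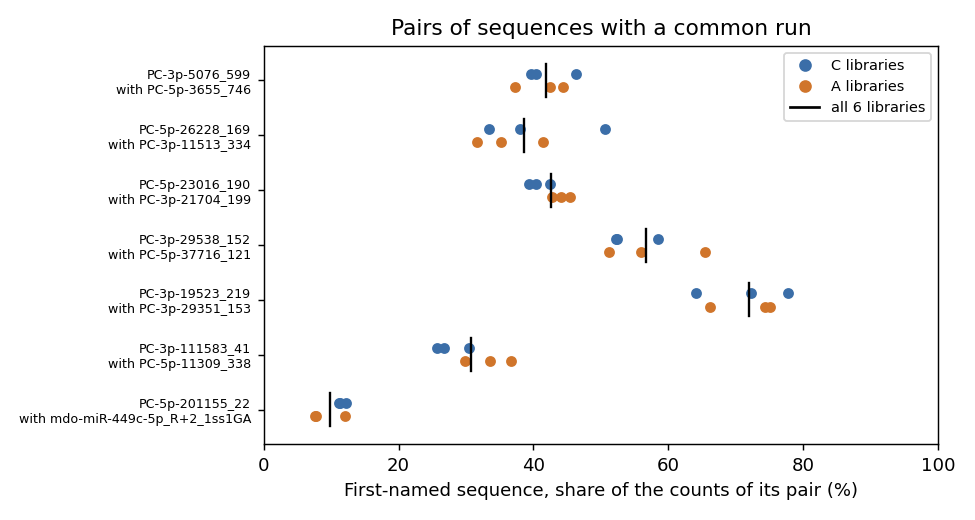
Share of the first-named sequence in the counts of its pair (percent), for the 7 pairs with the most counts, with 1 point per library (C blue, A orange) and a black line for all 6 libraries. The shares differ between pairs, from 9.89% for PC-5p-201155_22 to 71.9% for PC-3p-19523_219.

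Seeds were seldom shared. The 99 sequences had 96 different seeds, and each of the 3 repeated ones joined 2 sequences, 2 of these being the nested pairs PC-3p-21704_199 with PC-5p-23016_190 and PC-5p-629482_6 with PC-5p-530277_8. The third pair was PC-3p-183227_24 and PC-3p-218825_20 (chosen after their values were seen). These 2 sequences of 25 nt share no run of at least 18 bases, so they were not counted as versions above. They have the same start and the same 3′ end and differ by single bases in between:
PC-3p-183227_24: tCAGAGCCacttgttctttaccccg
PC-3p-218825_20: tCAGAGCCacttgtgctgtaccccg
PC-3p-183227_24 had 103.5 counts and PC-3p-218825_20 had 77. The seed of a known sequence of the table was found in 11 of the 99 (11.1%), in 6.45% of predicted sequences of 20 to 24 nt and in 2.13% of those of 18 to 19 nt. Besides let-7 and miR-34, each of these seeds stood in 1 known sequence of 1 to 32 counts.

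The diets were compared with edgeR's quasi-likelihood test over the 774 sequences whose normalized value averaged 1 or more on either diet, and all 99 passed this filter. An unadjusted p under 0.05 was found for 6 of the 99 (6.06%), of which 1 was higher in A and 5 were lower, against 5.94% of all sequences tested (2.45% higher, 3.49% lower). The share of the 99 was close to the background. With Benjamini-Hochberg adjustment over the 774 sequences, edgeR called 0 of the 99 and 0.0% of all sequences at an adjusted p under 0.05. DESeq2's Wald test called 0 as well, with 3 of the 99, 0 higher and 3 lower, at an unadjusted p under 0.05 (2.97% of all sequences tested). After quantile normalization, limma-voom called 0, with 8 of the 99 at an unadjusted p under 0.05 (7.49% of all), and the balance turned to 5 higher and 3 lower, and to 38 higher and 20 lower over all sequences. The test named in the study's methods, run per sequence on the normalized values as an alternative, put 3 of the 99 under 0.05 (2 higher and 1 lower) and 6.2% of all. The edgeR count of 6 moved to 2 without C replicate 1 (4.69% of all), to 11 without C replicate 2 (7.89%) and to 3 without A replicate 3 (5.7%). Without both C replicate 2 and A replicate 3 it was 6, with 2 higher and 4 lower. Over all 740 sequences tested there, 35 were higher and 28 lower. Some known names of other species were found mainly in C replicate 2. An example is bta-miR-127, at 264 CPM there, 16.4 CPM in A replicate 3 and 0 in the others. Their part in these shares was not tested. The diets did not overlap in 13 of the 99 (13.1%), 6 higher and 7 lower in A, against 13.0% of all sequences tested (5.94% higher, 7.11% lower), so this share too was close to the background. The count was 15 of the 99 with the authors' normalized values (12.9% of all). With no filter it was 15 of the 99 as well, which is above the 8.82% of all 1123 sequences. All 99 had already passed the filter, so the sequences brought in there were others, all of low values. Their part in the lower share was not tested. The median log2 fold change was 0.03 over the 99 and -0.08 over all sequences tested.

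PC-5p-113875_40 was the sequence higher in A. It was at 5.37, 10.8 and 9.11 CPM in C and 16.8, 18.4 and 25.3 CPM in A, with no overlap. The log2 fold change was 1.23 ± 0.43 SE (edgeR adjusted p = 0.690). Its p was not under 0.05 without C replicate 1 or without A replicate 3, when the log2 fold change was 1.03. Its shorter form PC-5p-112606_40 was at 5.37, 21.6 and 20.04 CPM in C and 20.1, 18.4 and 31.2 CPM in A, which overlap.

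PC-5p-594946_7 had the smallest p of the 99. It was at 34.0, 6.18 and 12.8 CPM in the C libraries and at 0 in all 3 A libraries. With 30 counts in C and a limit of 3 counts over the A libraries together, its pooled level was at least 10.9-fold lower in A (edgeR adjusted p = 0.559). This bound takes the C counts as they are and covers counting error of the 0 only. It leaves out the spread between birds, a coefficient of variation of 82.4% in C, and is no bound on an effect of diet. C replicate 1 held 19 of the 30 counts, and without it, a setting chosen after seeing the data, the bound was 5.89-fold. With no filter on low values, which brings in 349 further sequences, its adjusted p was 4.81e-05, the one call among the 99 under the alternatives run, where 12 of 1123 sequences (1.07%) were called. Over its alternatives the adjusted p went up to 0.863.

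PC-3p-1174314_3 was likewise at 0 in the A libraries, and at 16.1, 1.55 and 3.64 CPM in C. With 12 counts in C, its pooled level was at least 4.38-fold lower in A by the same bound, again without the spread between birds (edgeR adjusted p = 0.690). C replicate 1 held 9 of the 12 counts. Without it the other 3 counts were at the limit, so no bound is given, and p was not under 0.05. PC-5p-603699_7 was at 25.1, 10.8 and 16.4 CPM in C and 5.03, 7.68 and 4.46 CPM in A, with no overlap (log2 fold change -1.56 ± 0.51 SE, edgeR adjusted p = 0.690). PC-5p-419180_10 was at 21.5, 20.1 and 9.11 CPM in C and 8.38, 7.68 and 4.46 CPM in A, where the lowest C library was close to the highest A library (log2 fold change -1.29 ± 0.50 SE, edgeR adjusted p = 0.690). PC-5p-145884_31 was at 32.2, 4.64 and 21.9 CPM in C and 8.38, 4.61 and 5.95 CPM in A, and C replicate 2 lay among the A libraries (log2 fold change -1.59 ± 0.67 SE, edgeR adjusted p = 0.690). Without C replicate 1, the p of PC-5p-603699_7, PC-5p-419180_10 and PC-5p-145884_31 was not under 0.05 either, with log2 fold changes of -1.21, -1.09 and -1.03. Leaving out C replicate 2 or A replicate 3 had this effect on PC-5p-419180_10 (-1.16 and -1.06), and leaving out C replicate 3 or any single A library on PC-5p-145884_31 (-1.83 to -1.45).

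**Figure D5:**
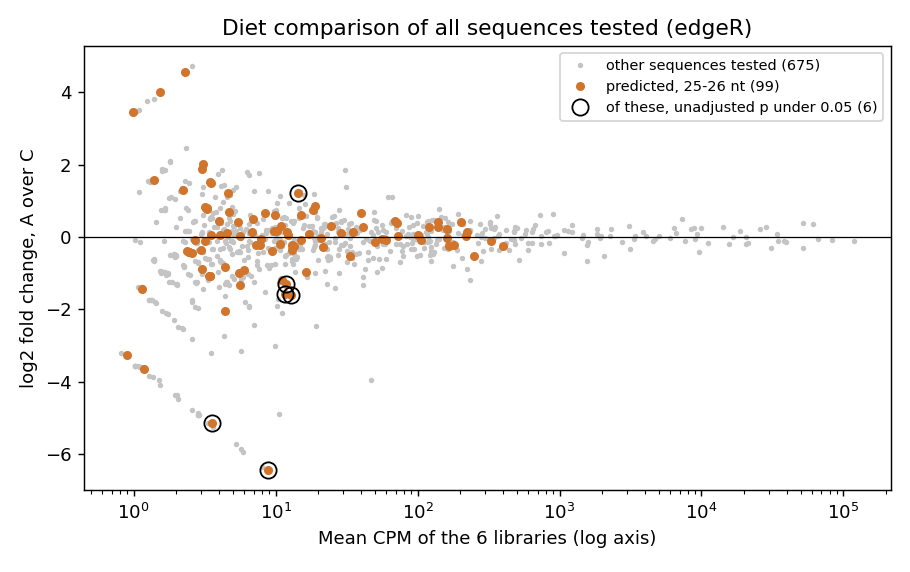
log2 fold change of A over C against mean CPM of the 6 libraries (log axis) for the 774 sequences tested, with the 99 predicted sequences of 25 to 26 nt in orange and the 6 of them with an unadjusted p under 0.05 circled. The orange points lie among the grey ones at every level, and the lines of points at the edges are sequences at 0 in all libraries of a diet, whose fitted values are no bounds.

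Among the 26 sequences with at least 100 counts, where the counting error is smallest, 0 had an unadjusted p under 0.05 by edgeR. Their log2 fold changes ran from -0.53 to 0.66. The share over all sequences with as many counts was not computed. Over all 774 sequences tested it was 5.94%. Of the 363 whose normalized value averaged 10 or more on either diet, 15 were higher and 14 lower. With so few sequences, the 0 is not read as a result about them. In 2 of the 26, PC-3p-39506_116 and PC-5p-130566_34 (the second chosen after its values were seen), the diets did not overlap, against 13.0% of all sequences tested. PC-5p-130566_34 was at 34.0, 38.6 and 40.1 CPM in C and 48.6, 44.5 and 43.1 CPM in A (log2 fold change 0.27 ± 0.27 SE, edgeR adjusted p = 0.815). The summed level of 12 sequences named miR-34b, miR-34c or miR-449 was 821 to 997 CPM in C and 1206 to 1386 CPM in A. The diets did not overlap in this sum. Most of it was gga-miR-34b-5p_L-1R+1, at 630, 515 and 594 CPM in C and 952, 803 and 905 CPM in A. Others of the 12 went both ways, such as gga-miR-34c-3p_L-1R+1 (log2 fold change 0.69) and gga-miR-449a (-0.19). For 17 sequences named for the leukocyte miRNAs miR-142, miR-223, miR-155 or miR-146, the summed level did not overlap either. It was 26426 to 31586 CPM in C and 33692 to 35984 CPM in A. Most of this sum was gga-miR-146c-5p_R-1, at 21620, 23905 and 26374 CPM in C and 28733, 25497 and 29694 CPM in A, which overlap. Others of the 17 went both ways, such as gga-miR-146a-5p_R+2 (log2 fold change 0.15) and gga-miR-142-5p_L-2R+1 (-0.16). The part of either list in the levels of the 99 was not tested. The other 8 of the 10 lists of cell type miRNAs overlapped between diets. Among these, the summed levels of miR-202, a gonad miRNA of supporting cells (44239 to 66467 CPM in C and 40040 to 56222 CPM in A), and of the male-biased miR-2954 (35085 to 36708 and 31461 to 35861 CPM) were high in every library.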

How the data were processed

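The deposited raw columns are expected counts, made by the authors with ACGT101-miR (version 4.2): reads of 18 to 26 nt were matched to miRBase 21.0 precursors with 1 mismatch allowed, and a read with several loci was divided between its lines. The genome build was not given in the sources used here. Deposited normalized columns hold a signal, the raw value times 1 constant per library (0.886 to 1.11). The authors' group means, fold changes, log2 values and p-values were not used. Raw values were summed per sequence and rounded. Library totals were 497286 to 743187 counts. The diets were compared in R 4.3.3 with edgeR 4.0.16 (quasi-likelihood test, TMM) on the 774 sequences whose normalized value averaged 1 or more on either diet, with adjustment over all of them. SE is the size of the log2 fold change over the square root of F. Alternatives used limma 3.58.1 and DESeq2 1.42.0. Descriptions and figures used scipy 1.17.1, numpy 2.4.6, pandas 2.3.3 and matplotlib 3.10.9 in Python 3.11.15. Sequences named are the 15 most abundant, those with an unadjusted p under 0.05, and those sharing a run of at least 18 bases in a pair of 20 or more counts. The members and lists were chosen with earlier results of these data known. Each p-value sets a difference between diets against the spread between libraries, with 1 library per bird. For edgeR the estimate of that spread drew on all sequences tested.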

Additional observations from a re-analysis of the deposited data

How the results depend on the processing

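The count of sequences with an unadjusted p under 0.05 was 6 by edgeR (5.94% of all sequences tested). It was 3 with DESeq2's Wald test (2.97% of all) and 3 with the Student t test on the normalized values (6.2%). With each library left out it ran from 2 without C replicate 1 (4.69%) to 11 without C replicate 2 (7.89%). The share over all sequences thus moved as well. The count with an adjusted p under 0.05, 0 by edgeR, was 1 with no filter (1.07% of all sequences tested), and 0 with each library left out. The cause of these changes was not tested. The share beginning with T, 58.6%, was 46.8% at 25 nt alone and 69.2% at 26 nt alone. The summed level kept a log2 ratio of -0.034 to 0.037 with each library left out. Same-numbered libraries of the diets had correlations of -0.070 to 0.053, so the numbers were not taken to pair them, and with the replicate number as a block 7 sequences had an unadjusted p under 0.05 (7.75% of all) and 0 an adjusted p under 0.05. The precision is limited by 3 libraries per diet and a median of 36 counts per sequence, and the size of difference that could be detected was not computed.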
